A study of Mus musculus with 24 samples.

Results

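The change of the heart's response to pressure overload between an early and a late time was measured as a difference of 2 effects, that of TAC at day 21 minus that of TAC at day 2. Transverse aortic constriction (TAC) narrows the aortic arch of a mouse, so that the left ventricle has to pump against a higher pressure, and sham is the operation without the constriction. The comparison uses 12 of the 24 RNA libraries of the study, all those of days 2 and 21, in 4 groups of 3: sham day 2, TAC day 2, sham day 21 and TAC day 21. The other 12 libraries, from other days, served to estimate the spread between replicates.

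Each library was made from RNA of mouse left ventricle, taken whole, so that muscle cells, vessels, fibroblasts and immune cells are mixed in it. The strain, genotype, sex and age of the mice are not stated in the sources at hand, and no agent besides the operation is named. Nor is it said whether the 3 replicates of a group are 3 animals, so that a p-value here speaks of the spread among libraries, which may be technical. Myl2, the ventricular myosin light chain, was at 4711 to 7777 CPM (counts per 1000000, scaled by TMM, the trimmed mean of M-values). Depth ran from 10.7 to 17.3 M counts per library (M, 1000000), and 13816 genes were tested. Genes are named by the symbols of the deposited table. Whether reads were counted by strand is not given, so that reads of antisense genes and of close paralogs may be mixed. Groups of genes are described with 52 lists of pathways and cell types, by the number of members past a test and the median over the members measured.

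A ventricle under a sudden load passes through an acute phase, in which stress-response, growth and inflammatory genes are switched on and stromal and immune cells divide. In the weeks that follow the wall thickens, connective tissue is laid down and the vessels have to grow with the muscle. Responses that fade and responses that build up late both enter a difference between an early and a late day.

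3 features of the libraries bear on every value below. The library labelled TAC day 2 replicate 1 lay close to the sham hearts: its slope on the mean effect of TAC at days 4 and 7, over all tested genes, was 0.0877, against 0.614 and 0.855 in replicates 2 and 3 and -0.0835 to 0.0576 in the 12 sham libraries of the study. The library labelled TAC day 21 replicate 2 was also low, at 0.0925, against 0.457 and 0.675 in replicates 1 and 3. TAC day 2 replicate 1 also held 2106 CPM of Esr1, the estrogen receptor alpha, which stood at no more than 3.26 CPM in the other 11. Myl7, a myosin light chain of the atria, ranged from 0 to 95.1 CPM and was above 30 CPM in 3 libraries, sham day 2 replicates 2 and 3 and sham day 21 replicate 2. Results are given with all libraries and, where it matters, without TAC day 2 replicate 1. That library was singled out by its weak response to TAC, so leaving it out favours a larger effect at day 2. The p-values of fits without it follow this choice and are a description only.

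With all libraries, 2 of 13816 genes differed between the days in their response to TAC (0.0145%), Trp53i11 and Rsad2, both with a more positive effect at day 21. Every adjusted p of a gene is from the quasi-likelihood test of edgeR, adjusted by Benjamini-Hochberg across the 13816 genes, and a gene passed at an adjusted p under 0.05. At an unadjusted p under 0.05, 582 genes were more positive at day 21 (4.21%) and 560 more negative (4.05%). DESeq2 called 59 genes (0.602% of the 9795 to which it gave an adjusted p) and limma's voom 2 (0.0145%). The 2 effects that enter the difference gave more calls. At day 2, 633 genes passed (4.58%), of which 515 rose after TAC (3.73%) and 118 fell (0.854%). At day 21, 151 passed (1.09%), of which 86 rose (0.622%) and 65 fell (0.47%). Without adjustment 17.4% of the genes were under 0.05 at day 21, and DESeq2 and voom called 4.04% and 0.63% there. From TAC day 2 to TAC day 21, 389 genes changed (2.82%), 243 upward (1.76%) and 146 downward (1.06%). From sham day 2 to sham day 21, 18 changed (0.13%), 15 upward (0.109%) and 3 downward (0.0217%). Counts of list members below are to be read beside these shares of all genes.

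At both days 26 genes passed. They are 4.11% of the calls of day 2, beside 1.09% of all genes called at day 21. Of the calls of day 21 they are 17.2%, beside 4.58% of all genes called at day 2. Of the 26, 16 rose at both days and 8 fell at both. The other 2, the same Trp53i11 and Rsad2, fell at day 2 and rose at day 21. Of the 633 genes called at day 2, 607 had a smaller effect at day 21, and of the 151 called at day 21, 141 had a smaller effect at day 2. Each set was chosen on the day at which it is larger, so these shares are a description only.

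Without TAC day 2 replicate 1, 69 genes differed between the days (0.499%), 35 more positive at day 21 (0.253%) and 34 more negative (0.246%). The calls at day 2 then numbered 1831 (13.3%), 1237 higher (8.95%) and 594 lower (4.3%). All 69 had the same direction with all libraries in the fit, and 66 of them an unadjusted p under 0.05 there. The fit that chose the 69 shares all its libraries with the full fit, so this is a description only. Set against the calls of day 2 without that library and those of day 21, 31 of the 34 more negative genes were higher after TAC at day 2 and not called at day 21. Of the 35 more positive genes, 26 were lower at day 2 and not called at day 21, and 3 were lower at day 2 and higher at day 21. 2 more were called at day 21 alone, and 4 at neither day. TAC day 21 replicate 2, the other library of low slope, was kept in these fits. When it was left out instead, 573 of the 13816 genes were called at day 21, and 0 of the 31 and 0 of the 26 were among them. Those genes were chosen in part for not being called at day 21, so this is a description only. No fit left out both libraries of low slope. Leaving out each other library in turn gave 1 to 9 calls of the difference, with 4 when TAC day 21 replicate 2 was left out. The counts within a day also rested on single libraries: at day 2 they were 112, 12 and 100 without sham replicates 1 to 3 and 1831, 349 and 12 without TAC replicates 1 to 3. At day 21 they were 17, 30 and 7 without sham replicates 1 to 3 and 8, 573 and 9 without TAC replicates 1 to 3.

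**Figure D1:**
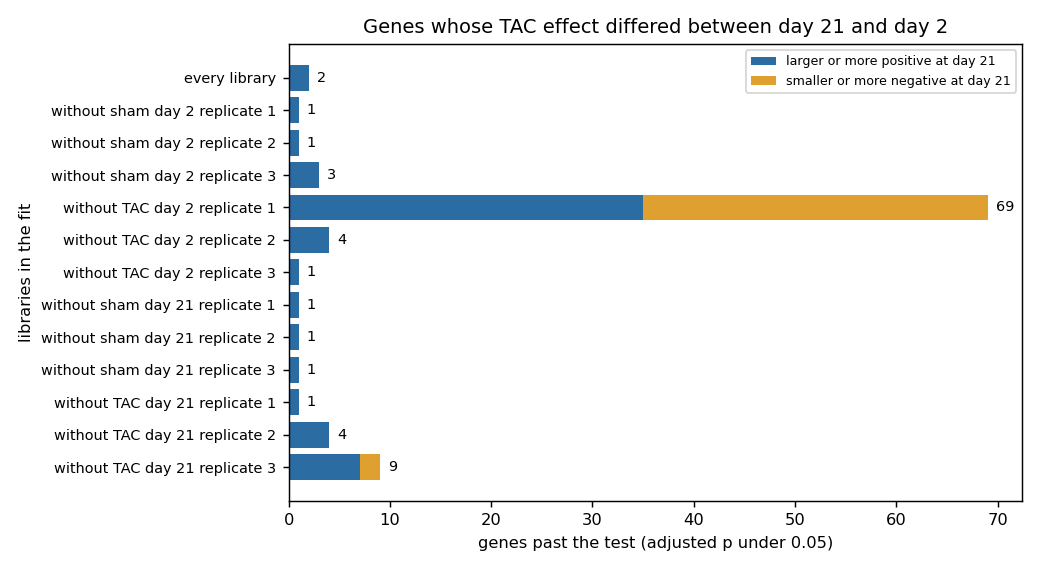
Number of genes whose TAC effect differed between day 21 and day 2 (x axis, adjusted p under 0.05) with every library and with each of the 12 libraries left out (y axis), blue for a more positive and yellow for a more negative effect at day 21. The bar without TAC day 2 replicate 1 reaches 69, the one with every library 2, and the others 1 to 9.

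**Figure D2:**
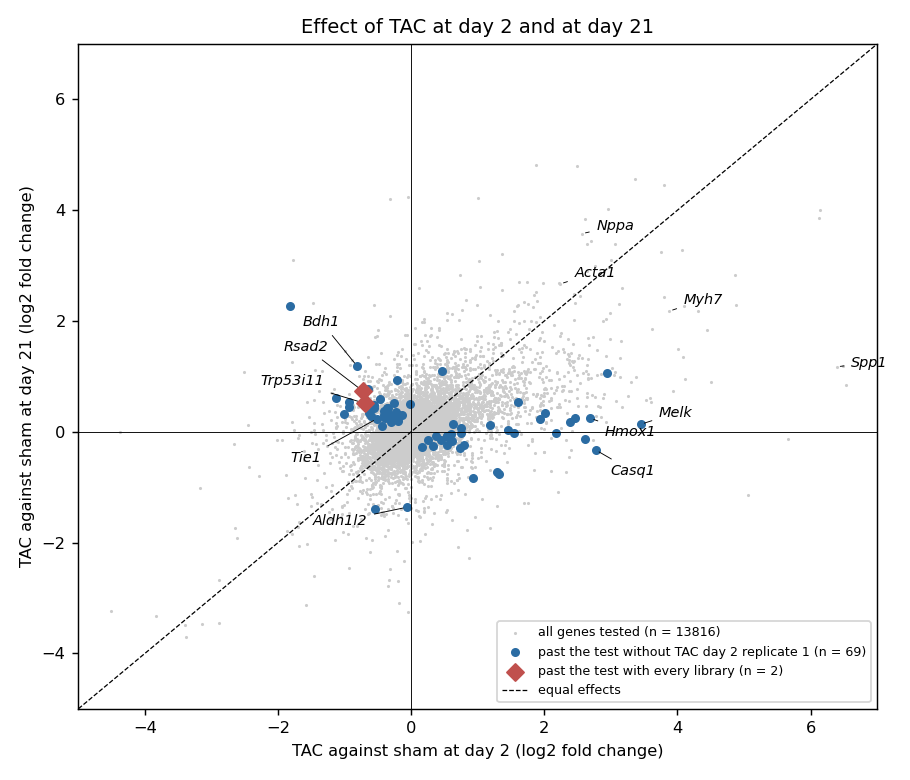
Log2 fold change of TAC over sham at day 2 (x axis) and at day 21 (y axis) for the 13816 genes tested, of which 3 lie outside the axes. Genes on the dashed line have equal effects, red diamonds mark the 2 genes past the test with every library, and blue points mark the 69 past it without TAC day 2 replicate 1, most of which lie near 0 at day 21.

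Trp53i11, a gene named for its induction by p53, had 32.7, 38.7 and 37.3 CPM in replicates 1 to 3 of sham day 2 and 19.7, 23.01 and 24.5 in TAC day 2. At day 21 it had 44.9, 43.7 and 36.9 CPM in sham and 54.97, 64.3 and 59.6 in TAC. The TAC libraries lay below every sham library at day 2 and above every sham library at day 21, with no overlap. Trp53i11 and Rsad2 were chosen by the difference of these same values, so the order of their libraries is a description only. The log2 fold change was -0.69 ± 0.11 (± SE, adjusted p = 0.00585) at day 2 and 0.51 ± 0.11 (adjusted p = 0.0317) at day 21. The difference was 1.20 ± 0.16 log2 units, 95% interval 0.87 to 1.53, adjusted p = 0.00304, and 1.13 ± 0.16 (adjusted p = 0.00367) without TAC day 2 replicate 1.

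Rsad2 encodes viperin, an antiviral protein induced by interferon. It had 38.5, 28.7 and 25.4 CPM in sham day 2, 21.2, 18.03 and 16.8 in TAC day 2, 22.7, 20.4 and 21.03 in sham day 21 and 36.6, 33.1 and 37.5 in TAC day 21. Again the 3 TAC libraries were all below the shams at day 2 and all above them at day 21, while the sham hearts of day 21 were themselves lower than those of day 2. The effects were -0.73 ± 0.18 (adjusted p = 0.0215) and 0.74 ± 0.18 (adjusted p = 0.0458). The difference was 1.47 ± 0.25, 95% interval 0.95 to 1.99, at an adjusted p of 0.0495, just under the threshold. It passed under 11 of 23 other settings and Trp53i11 under 22 of 23.

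The stretches of 250 bases before the start of these genes are shown because they were the only genes past the test with every library, and because interferon genes are read through a known element. They come from RefSeq on GRCm38.p6, at chr12:26456453-26456702 (minus strand) for Rsad2 and chr2:93187298-93187547 (plus strand) for Trp53i11, matched by symbol. Capitals mark the core of the interferon-stimulated response element (ISRE), searched on both strands as GAAA, any 2 bases and GAAA and found in Rsad2 on the opposite strand, 120 bases before the start.
Rsad2: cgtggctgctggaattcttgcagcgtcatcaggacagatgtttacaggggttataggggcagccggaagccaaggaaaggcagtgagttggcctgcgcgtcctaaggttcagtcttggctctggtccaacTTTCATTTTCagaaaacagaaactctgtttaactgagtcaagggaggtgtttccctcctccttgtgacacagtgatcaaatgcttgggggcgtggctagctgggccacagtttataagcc
Trp53i11: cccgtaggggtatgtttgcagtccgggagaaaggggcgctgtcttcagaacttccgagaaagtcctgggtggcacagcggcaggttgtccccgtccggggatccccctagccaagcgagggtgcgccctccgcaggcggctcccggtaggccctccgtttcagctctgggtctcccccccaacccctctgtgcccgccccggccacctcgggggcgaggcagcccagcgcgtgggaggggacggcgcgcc
The stretch of Trp53i11 held none of the 3 motifs searched here, the other two being given below. Of the interferon response genes with a promoter in the table, 14 of 26 held the ISRE core (53.8%), against 325 of the 10293 tested genes matched (3.16%). A match describes the letters only.

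**Figure D3:**
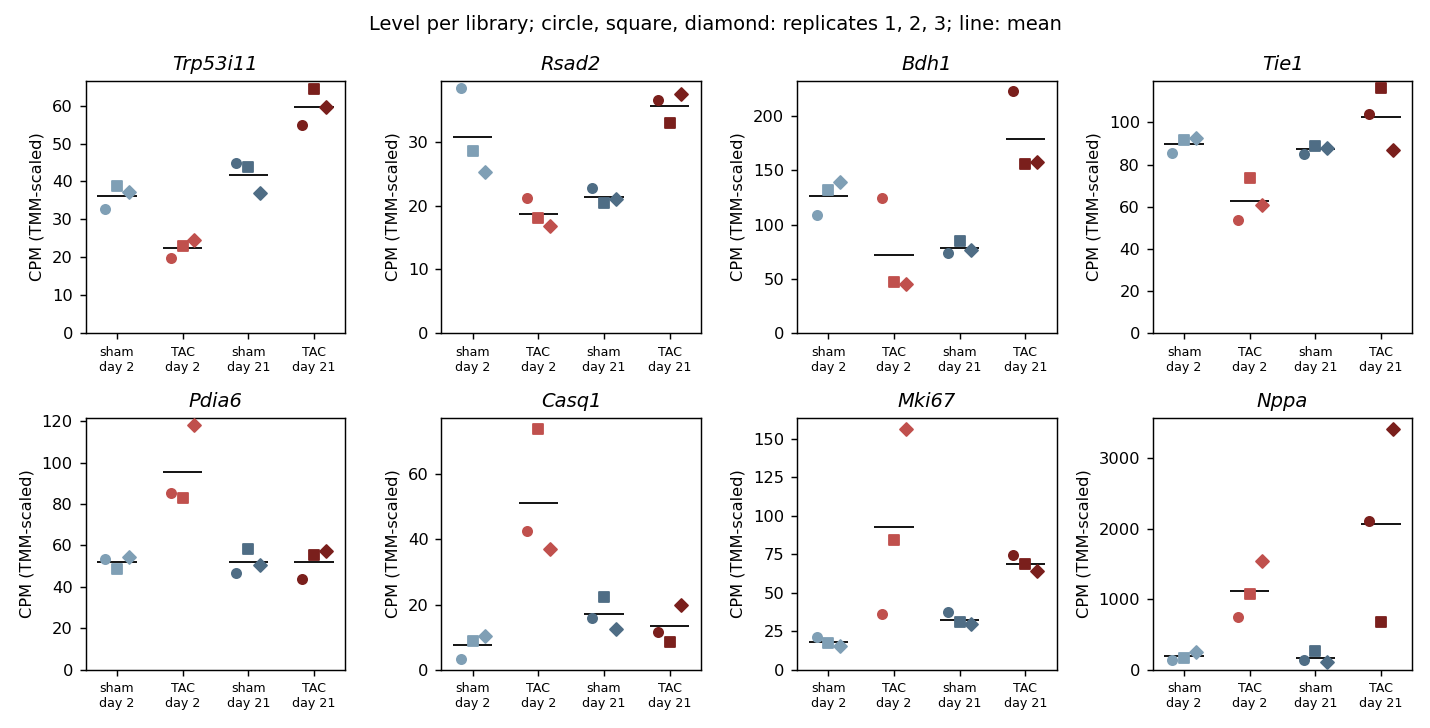
CPM (TMM-scaled, linear axes from 0) of 8 genes in the 12 libraries by group, with the mean as a line and a marker for each replicate. The TAC points of Trp53i11 and Rsad2 lie below the sham points at day 2 and above them at day 21, those of Pdia6 and Casq1 lie above the sham points at day 2 and overlap with them at day 21, and those of Nppa lie above the sham points at both days.

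A further 15 genes had an adjusted p between 0.05 and 0.07, 11 with a more positive and 4 with a more negative difference. None of these passed with all libraries, and their values are given as such. They were picked by the same difference, so the order of their libraries is a description only. Bdh1, which encodes a mitochondrial enzyme that uses the ketone body 3-hydroxybutyrate, had the highest of the positive ones. It was at 109, 132 and 139 CPM in sham day 2 and 125, 46.6 and 45.4 in TAC day 2, then 74.2, 84.6 and 76.5 in sham day 21 and 223, 156 and 158 in TAC day 21. At day 2 replicates 2 and 3 of TAC were below all shams while replicate 1 lay among them, and at day 21 all TAC libraries were above all shams. Bdh1 rose at day 21 (1.19 ± 0.26, adjusted p = 0.0316), and the difference was 2.01 ± 0.37 with all libraries (adjusted p = 0.0582). It was 2.66 ± 0.22 without TAC day 2 replicate 1 (adjusted p = 1.54e-06).

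Egln3, an oxygen-sensing prolyl hydroxylase and itself a target of hypoxia-inducible factor, had 108, 99.4 and 70.4 CPM in sham day 2 and 60.7, 36.3 and 48.5 in TAC day 2. At day 21 it had 57.8, 39.8 and 47.6 in sham and 79.4, 63.2 and 69.5 in TAC. The TAC libraries were below the shams at day 2 and above them at day 21, without overlap, with a difference of 1.48 ± 0.28 (adjusted p = 0.0582, 0.0106 without TAC day 2 replicate 1). The sham level of Egln3 at day 21 was also below that of day 2 (-0.93 ± 0.20, adjusted p = 0.0793). Lrp5, a coreceptor of Wnt ligands, differed by 0.58 ± 0.11, Ccdc88c by 1.06 ± 0.20 and Rnf144a by 0.78 ± 0.15, each with an adjusted p of 0.0582. For each of these 3 the TAC libraries lay below the shams at day 2 and above them at day 21.

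Casq1, the calsequestrin of fast skeletal muscle, was the most negative of this group. It had 3.29, 8.71 and 10.5 CPM in sham day 2 and 42.6, 73.8 and 37.2 in TAC day 2, against 15.8, 22.5 and 12.6 in sham day 21 and 11.5, 8.55 and 19.9 in TAC day 21. All 3 TAC libraries were above the shams at day 2, replicate 1 included, and the groups overlapped at day 21. Casq1 rose at day 2 (2.78 ± 0.44, adjusted p = 0.005699) and the difference was -3.11 ± 0.61 (adjusted p = 0.0582, 0.0382 without TAC day 2 replicate 1). Aldh1l2, a mitochondrial enzyme of folate metabolism, went the other way round: it fell at day 21 (-1.36 ± 0.19, adjusted p = 0.00403) and stood at -0.07 ± 0.18 at day 2 (adjusted p = 0.864). Its 3 TAC libraries of day 21 held 6.68, 6.98 and 6.998 CPM, against 20.2, 16.4 and 16.6 in sham. Aldh1l2 was the only one of the 34 more negative genes without TAC day 2 replicate 1 that was called at day 21 and not at day 2. Dusp16, a phosphatase of stress-activated kinases, moved little but evenly, with 27.8, 28.7 and 29.5, 34.4, 36.8 and 36.1, 34.2, 35.9 and 32.9 and 27.8, 28.6 and 29.98 CPM in the 4 groups in the same order. The difference was -0.57 ± 0.11 (adjusted p = 0.0582).

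Genes of the vessel lining leaned to a more positive effect at day 21. Of 35 endothelial genes measured, 18 had a more positive and 1 a more negative effect at day 21 at an unadjusted p under 0.05, beside 4.21% and 4.05% of all genes. None passed the adjusted test of the difference (0 by edgeR, 4 by DESeq2, 0 by voom), and 2 did without TAC day 2 replicate 1, Tie1 and Tek. The median log2 fold change of the list was -0.11 at day 2 and 0.19 at day 21, and the median difference 0.30, against -0.01 for all genes tested. At day 2, 3 of the 35 fell, and at day 21, 1 rose. In the TAC hearts themselves 14 of the 35 rose from day 2 to day 21 and 1 fell, beside 1.76% and 1.06% of all genes.

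Tie1 and Kdr are receptor kinases of endothelial cells, Kdr being the main receptor of VEGF-A. Tie1 had 85.3, 91.7 and 92.6 CPM in sham day 2, 53.9, 73.5 and 60.7 in TAC day 2, 84.9, 88.95 and 87.7 in sham day 21 and 104, 117 and 87 in TAC day 21. The groups did not overlap at day 2, when Tie1 fell (-0.52 ± 0.10, adjusted p = 0.0104), and overlapped at day 21. The difference was 0.75 ± 0.15 (adjusted p = 0.0582). Kdr fell at day 2 from 304, 294 and 244 to 195, 179.7 and 176 CPM (-0.61 ± 0.12, adjusted p = 0.0104). At day 21 its effect was -0.06 ± 0.12 (adjusted p = 0.826), and the difference was 0.55 ± 0.17 (adjusted p = 0.319). Cdh5, the cadherin of endothelial junctions, had a difference of 0.53 ± 0.14 and Pecam1, another junction protein, of 0.36 ± 0.12 (adjusted p = 0.2 and 0.3198).

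The summed level of the 35 endothelial genes was 3045 to 3178 CPM in sham day 2 and 2568 to 2900 in TAC day 2, then 2930 to 3091 in sham day 21 and 3172 to 3510 in TAC day 21. None of the 35 was at 0. These sums, in which abundant genes weigh most, did not overlap between TAC and sham at either day and stood in opposite order. With each gene weighted equally, as mean log2 CPM minus that of the shams of the day, the libraries overlapped at day 2: TAC replicates 1 to 3 were at -0.171, -0.0615 and -0.00754 and the shams at -0.0207, -0.0348 and 0.0556. At day 21 TAC was at 0.133, 0.198 and 0.0456 and the highest sham at 0.0347. In bulk RNA fewer cells of a type and less RNA per cell cannot be told apart. In TAC day 2 the sums were 2900, 2681 and 2568 CPM in replicates 1 to 3, and in TAC day 21 3394, 3510 and 3172, so that by the sum the 2 libraries with a low slope lay on the same side of the shams as the others. TAC day 2 replicate 1 had the highest sum of its group and the lowest equally weighted mean.

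Genes of the basement membrane, the sheet beneath endothelium and around muscle cells, were higher after TAC at day 21 for part of the list. Of 18 genes measured, 4 rose at day 21, beside 0.622% of all genes. At an unadjusted p under 0.05, 7 of the 18 had a more positive effect at day 21, beside 4.21% of all genes. None passed the adjusted test of the difference (0 by edgeR, 2 by DESeq2, 0 by voom), and 1, Col4a3, did without TAC day 2 replicate 1. The medians were -0.01 at day 2, 0.34 at day 21 and 0.31 for the difference. Col4a3 and Col4a4 are chains of a collagen IV network of specialised basement membranes, and their genes lie head to head. Col4a3 had 14.03, 11.2 and 11.9 CPM in sham day 2, 7.802, 10.2 and 5.56 in TAC day 2, 16.8, 16.1 and 12.9 in sham day 21 and 27.4, 19.4 and 31.3 in TAC day 21. Its TAC and sham libraries did not overlap at either day and stood in opposite order, with a difference of 1.43 ± 0.28 (adjusted p = 0.0582). For Col4a4 the difference was 1.06 ± 0.24 (adjusted p = 0.123). The abundant chains Col4a1 and Col4a2 rose at day 21 (0.88 ± 0.18 and 0.82 ± 0.15, adjusted p = 0.0213 and 0.0137). At day 2 they stood at 0.22 ± 0.17 and 0.25 ± 0.15 (adjusted p = 0.505 and 0.372).

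Interferon response genes, which cells switch on through STAT proteins and interferon regulatory factors, shared the direction of Rsad2. Of 35 measured, 15 were more positive at day 21 and 0 more negative at an unadjusted p under 0.05. The shares of all genes were 4.21% and 4.05%. Rsad2 was the 1 of the 35 past the adjusted test of the difference (3 by DESeq2, 0 by voom). The list median was -0.23 at day 2 and 0.44 at day 21, and that of the difference 0.58. At day 2, 2 of the 35 fell, Rsad2 and Gbp6, and at day 21, 2 rose, Rsad2 and Bst2. Without TAC day 2 replicate 1 the median difference was 0.81, and without TAC day 21 replicate 2 it was 0.61.

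Bst2, which encodes the antiviral membrane protein tetherin, had 13.03, 13.7 and 10.8 CPM in sham day 21 and 23.4, 23.03 and 21.95 in TAC day 21. All TAC libraries were above all shams, replicate 2 included (0.87 ± 0.17, adjusted p = 0.0166), while at day 2 the groups overlapped (-0.12 ± 0.16, adjusted p = 0.744). The difference for Bst2 was 0.98 ± 0.23 (adjusted p = 0.138). Gbp6, a guanylate-binding protein, fell at day 2 from 38.3, 22.3 and 20.6 to 14.9, 15.2 and 7.52 CPM (-1.12 ± 0.30, adjusted p = 0.03502). Its difference was 1.60 ± 0.42 (adjusted p = 0.211), and that of Irf7, a transcription factor of the type I interferon response, 1.13 ± 0.32 (adjusted p = 0.253). The sham hearts were not flat for this list: its median change from sham day 2 to sham day 21 was -0.41. Members share inducers, so that their counts are not independent.

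Antigen presentation genes, several of them also interferon targets, had a median difference of 0.40. Of 25 measured, 5 were more positive and 0 more negative at an unadjusted p under 0.05, beside 4.21% and 4.05% of all genes. Of the 25, 0 passed by edgeR, DESeq2 or voom. B2m, the light chain of class I molecules, had 448, 342 and 361 CPM in sham day 2, 412, 302 and 267 in TAC day 2, 358, 338 and 353 in sham day 21 and 484, 479.7 and 555 in TAC day 21. Its libraries overlapped at day 2 and did not at day 21, with a difference of 0.76 ± 0.26 (adjusted p = 0.374). The lymphocyte list rested on 7 genes of few reads. Over the 24 members found in the deposited counts, its summed level was 11.3 to 13.6 CPM in sham day 2, 11.98 to 14.9 in TAC day 2, 8.57 to 11 in sham day 21 and 12.03 to 16.2 in TAC day 21. The part of lymphocytes in the antigen presentation values was not tested.

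**Figure D4:**
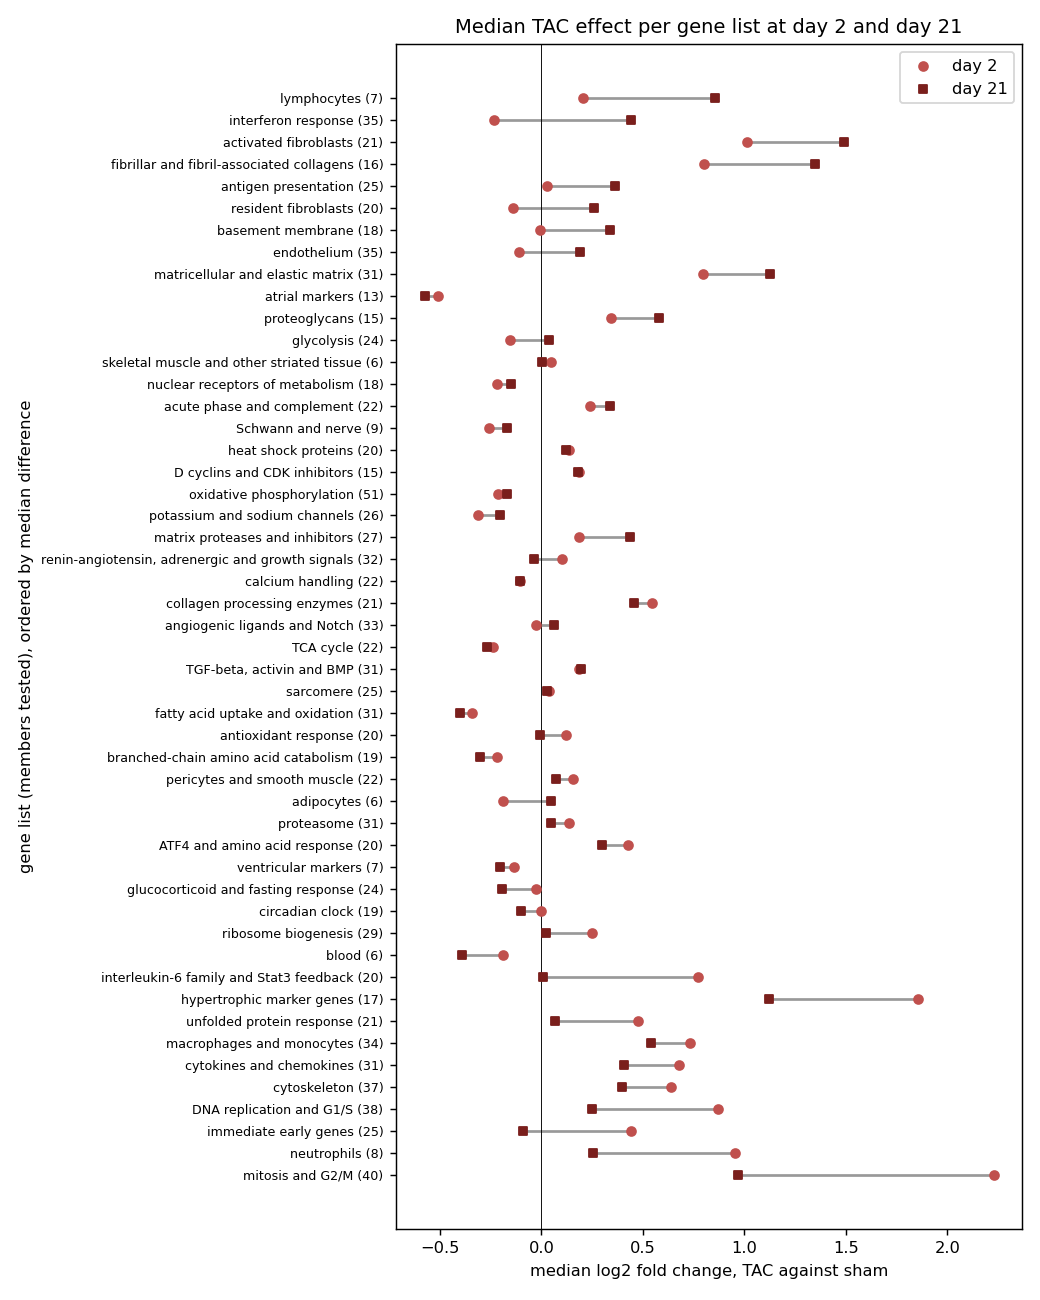
Median log2 fold change of TAC over sham at day 2 (circles) and at day 21 (squares) for the 50 gene lists with at least 6 members tested, in the order of their median difference, with the number of members in brackets. Interferon response genes are at -0.23 and 0.44 near the top, and mitosis genes at 2.23 and 0.97 at the bottom.

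Genes of dividing cells had the most negative median difference of the lists with at least 6 members measured. Of 40 genes of mitosis and the G2/M phase measured, 31 rose at day 2 by edgeR, beside 3.73% of all genes. DESeq2 called 35 at day 2, but voom only 1. At day 21 none passed edgeR's test (0 called, 11 at an unadjusted p under 0.05, DESeq2 2, voom 0), with list medians of 2.23 and 0.97. The median difference was -1.04. At an unadjusted p under 0.05, 11 members were more negative and 0 more positive, beside 4.05% and 4.21% of all genes. The sham hearts enter this value as well: the list median changed by 0.62 from sham day 2 to sham day 21 and by -0.51 from TAC day 2 to TAC day 21. None passed the adjusted test of the difference (0 by edgeR, DESeq2 and voom). Without TAC day 2 replicate 1 the median difference was -1.43 and 1 member, Melk, passed. In that fit 21 members were more negative at an unadjusted p under 0.05, beside 860 of all 13816 genes. With TAC day 21 replicate 2 left out instead, the median difference was -1.10. Of 38 genes of DNA replication and the G1/S step, 12 rose at day 2 by edgeR, and DESeq2 called 17 and voom 0. The medians were 0.87 and 0.25. At an unadjusted p under 0.05, 8 of the 38 were more negative and 0 more positive (0 past the adjusted test by edgeR, DESeq2 and voom). Their median change was 0.02 between the sham groups and -0.51 between the TAC groups.

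Mki67, a nuclear protein of cycling cells, had 21.5, 17.3 and 15.3 CPM in sham day 2 and 36.2, 84.5 and 157 in TAC day 2. At day 21 it had 37.2, 30.8 and 29.8 in sham and 74.4, 68.7 and 63.8 in TAC. The TAC libraries were above the shams at both days, but the 3 of day 2 differed widely and the 3 of day 21 lay close together. Mki67 rose at day 2 (2.36 ± 0.42, adjusted p = 0.00769). Its effect at day 21 was 1.08 ± 0.40 (adjusted p = 0.171) and the difference -1.28 ± 0.57 (adjusted p = 0.569). Top2a, the topoisomerase that untangles DNA before division, gave 2.92 ± 0.51 and 1.06 ± 0.49 at the 2 days and a difference of -1.86 ± 0.72 (adjusted p = 0.472). Melk, a kinase of mitotic cells, was at 0.644, 2.89 and 3.71 CPM in TAC day 2 and at most 1.03 CPM in the other 9 libraries. Its log2 values rest on few reads and on the prior count, and its difference was -3.31 ± 0.94 (adjusted p = 0.2603, 0.0439 without TAC day 2 replicate 1).

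The ER stress and cell cycle lists are each known for an element near the start of their genes, and 1 member of each is shown with it. Pdia6, at chr12:17266339-17266588 (plus strand), carries the ER stress response element (ERSE), searched on both strands as CCAAT, any 9 bases and CCACG, and Mki67, at chr7:135716380-135716629 (minus strand), the cell cycle homology region (CHR), searched on both strands as TTTGAA. Both are the 250 bases before the start in RefSeq on GRCm38.p6, with the matches in capitals.
Pdia6: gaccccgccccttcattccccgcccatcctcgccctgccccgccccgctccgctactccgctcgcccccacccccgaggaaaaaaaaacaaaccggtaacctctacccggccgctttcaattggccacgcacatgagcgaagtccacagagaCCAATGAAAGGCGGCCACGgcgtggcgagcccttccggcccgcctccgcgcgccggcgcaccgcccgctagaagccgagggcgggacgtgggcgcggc
Mki67: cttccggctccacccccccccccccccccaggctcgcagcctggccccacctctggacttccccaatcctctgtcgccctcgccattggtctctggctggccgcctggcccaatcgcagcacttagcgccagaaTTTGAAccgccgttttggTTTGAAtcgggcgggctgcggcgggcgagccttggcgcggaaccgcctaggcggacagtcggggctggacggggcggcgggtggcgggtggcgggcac
The ERSE lies 98 bases before the start of Pdia6, and the CHR lies at 116 and 98 bases before that of Mki67. The ERSE was found in 8 of the 18 matched genes of the unfolded protein response (44.4%) and in 14 of all 10293 (0.136%). The CHR, with its 6 letters, was found in 11 of 33 mitosis genes (33.3%) and in 1310 of all (12.7%).

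The unfolded protein response, by which a cell enlarges the folding capacity of its endoplasmic reticulum, gave calls at day 2. Of 21 genes measured, 11 rose at day 2 by edgeR, beside 3.73% of all genes, and DESeq2 called 12 and voom 9. At day 21 none passed (0 by edgeR, DESeq2 and voom, 1 at an unadjusted p under 0.05), with medians of 0.48 and 0.07. The median difference was -0.28, and 9 members were more negative and 0 more positive at an unadjusted p under 0.05 (0 past the adjusted test by edgeR and voom, 2 by DESeq2). Of all genes 4.05% and 4.21% were so without adjustment. In the TAC hearts 6 of the 21 fell from day 2 to day 21.

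Pdia6, a disulfide isomerase of the endoplasmic reticulum, had 53.2, 48.7 and 54.4 CPM in sham day 2 and 85.2, 82.8 and 118 in TAC day 2. At day 21 it had 46.9, 58.2 and 50.6 in sham and 43.7, 55.6 and 57.2 in TAC. All 3 TAC libraries of day 2 were above every other library, TAC day 2 replicate 1 included, and the groups of day 21 overlapped. The difference was -0.86 ± 0.21 (adjusted p = 0.166), and Pdia6 fell from TAC day 2 to TAC day 21 (-0.87 ± 0.15, adjusted p = 0.00377). Hspa5, the chaperone BiP, had 473, 367 and 484 CPM in TAC day 2 and 295, 339 and 305 in TAC day 21, with a difference of -0.55 ± 0.15 (adjusted p = 0.223). For Sdf2l1, a cofactor of BiP, the difference was -1.31 ± 0.40, for Manf, a secreted stress protein, -0.89 ± 0.28, and for Xbp1, the transcription factor of the response, -0.50 ± 0.14 (adjusted p = 0.2899, 0.311 and 0.249).

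Immediate early genes, the first transcription factors made after a stimulus, had a median effect of 0.44 at day 2 and -0.09 at day 21. Of 25 measured, 6 rose at day 2, beside 3.73% of all genes. At an unadjusted p under 0.05, 12 of the 25 were more negative at day 21 and 0 more positive, beside 4.05% and 4.21%. None passed the adjusted test of the difference (0 by edgeR and voom, 1 by DESeq2), and 2 did without TAC day 2 replicate 1, Atf3 and Btg2. In the sham hearts 4 of the 25 rose from day 2 to day 21, Jun, Jund, Klf2 and Nr4a1, and the list median of the sham change was 0.62. Between the TAC groups the median change was -0.02, with 3 members higher and 1 lower at day 21, so that at the median the difference goes with the sham hearts.

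Jun had 53.3, 44.4 and 51.1 CPM in sham day 2, 56.95, 67.9 and 57.2 in TAC day 2, 78.5, 109 and 86.9 in sham day 21 and 70.8, 89.4 and 58.9 in TAC day 21. Its difference of -0.61 ± 0.19 (adjusted p = 0.2899) thus goes with a rise of 0.88 ± 0.13 in the sham hearts (adjusted p = 0.00489). Nr4a1, a nuclear receptor made within minutes of a stimulus, rose by 1.84 ± 0.27 in the sham hearts (adjusted p = 0.00489), from 10.9, 7.14 and 6.67 to 27.9, 24.9 and 36.02 CPM. Atf3, a stress-induced repressor, differed by -2.08 ± 0.50 (adjusted p = 0.138, 0.0136 without TAC day 2 replicate 1), with a sham change of 0.76 ± 0.35 (adjusted p = 0.504). Another gene of the sham hearts that enters a difference is Lrat, which esterifies retinol. It fell between the sham groups from 4.87, 3.69 and 4.16 to 1.02, 0.282 and 0.688 CPM (-2.62 ± 0.43, adjusted p = 0.0109), and its difference of 1.96 ± 0.65 (adjusted p = 0.359) goes with that fall.

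Antioxidant genes gave 4 members that rose at day 2 and 1 at day 21, with 4 more negative and 0 more positive differences at an unadjusted p under 0.05 of 20 measured (0 past the adjusted test by edgeR, DESeq2 and voom). Hmox1, the heme oxygenase, had 7.32, 29.5 and 103 CPM in TAC day 2 and 5.5 to 9 CPM in the other 9 libraries. Replicate 1 was at the sham level and replicates 2 and 3 above it. Hmox1 rose at day 2 (2.69 ± 0.52, adjusted p = 0.00892), and the difference was -2.45 ± 0.77 (adjusted p = 0.313, 0.0106 without TAC day 2 replicate 1). In the list of ATF4 targets and amino acid supply, 3 of 20 rose at day 2, 2 were more negative and 0 more positive at an unadjusted p under 0.05, and 0 passed the adjusted test by edgeR, DESeq2 or voom. Without TAC day 2 replicate 1, 1 passed, Psat1, an enzyme of serine synthesis (-2.58 ± 0.57, adjusted p = 0.0452).

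Genes of macrophages and monocytes had their highest summed level in TAC day 2. Of 34 macrophage and monocyte genes, 12 rose at day 2 by edgeR, beside 3.73% of all genes. DESeq2 called 14 at day 2 and voom 4. At day 21 0 passed by edgeR and voom (14 at an unadjusted p under 0.05, 2 by DESeq2). The medians were 0.73 and 0.54 at the 2 days. The median difference was -0.29, with 4 more negative and 1 more positive at an unadjusted p under 0.05 (0 past the adjusted test by edgeR, DESeq2 and voom). With TAC day 2 replicate 1 left out, Itgam was called more negative and Ly6c1, which vessel cells also express, more positive. Part of the change ran in both groups: 7 of the 34 fell from TAC day 2 to TAC day 21, and the sham median change was -0.38. The summed level of the 35 members found in the deposited counts was 899.6 to 1120 CPM in sham day 2, 1121 to 1784 in TAC day 2, 770.8 to 826.5 in sham day 21 and 883 to 1092 in TAC day 21, and none of the 35 was at 0.

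Itgam, an integrin of myeloid cells, had 11.4, 26.4 and 43.2 CPM in TAC day 2 and 10.2, 6.63 and 12.3 in TAC day 21, with a difference of -1.08 ± 0.45 (adjusted p = 0.534, 0.0492 without TAC day 2 replicate 1). Spp1, which encodes osteopontin, had 0.395, 1.57 and 1.58 CPM in sham day 2, 4.26, 68.8 and 226 in TAC day 2, 0.874, 2.54 and 1.15 in sham day 21 and 1.34, 0.349 and 7.74 in TAC day 21. It had the largest difference of the genes described here apart from Esr1, -5.22 ± 1.95, with a standard error so wide that the adjusted p was 0.444. Ccl2, the chemokine that draws monocytes, was at 2.74, 8.73 and 29.6 CPM in TAC day 2 and at 2.05, 1.66 and 1.99 in TAC day 21, with a difference of -2.74 ± 0.88 (adjusted p = 0.328, 0.0435 without TAC day 2 replicate 1). In the list of cytokines and chemokines, 4 of 31 rose at day 2, and at day 21 1 rose and 1 fell. In the list of the interleukin-6 family and its Stat3 feedback genes, 3 of 20 rose at day 2 and 1 at day 21. The 2 lists had 3 and 4 members more negative at an unadjusted p under 0.05, beside 4.05% of all genes. More positive were 1 and 0, beside 4.21% of all genes, with 0 past the adjusted test by edgeR, DESeq2 or voom.

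The neutrophil list rested on 8 genes measured. The summed level is over the 16 members found in the deposited counts, of which Elane was at 0 in all 12 libraries. It was 16.4 to 21.99 CPM in sham day 2, 46.2 to 77.02 in TAC day 2, 9.76 to 12.3 in sham day 21 and 11.4 to 15.7 in TAC day 21. Lcn2, an iron-trapping lipocalin that neutrophils release, made up much of it. It had 12.6, 4.78 and 8.75 CPM in sham day 2, 39.01, 28.1 and 38.6 in TAC day 2, 2.99, 2.63 and 3.75 in sham day 21 and 2.58, 3.14 and 4.79 in TAC day 21. All 3 TAC libraries of day 2 were above all others, TAC day 2 replicate 1 with the highest value of the 12. Lcn2 rose at day 2 (2.02 ± 0.31, adjusted p = 0.00517) and fell from TAC day 2 to TAC day 21 (-3.31 ± 0.34, adjusted p = 2.33e-05). The difference of the effects was -1.85 ± 0.49 (adjusted p = 0.211). The globin genes were listed at 0 in all 12 libraries, so that blood in the tissue cannot be judged from them.

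**Figure D5:**
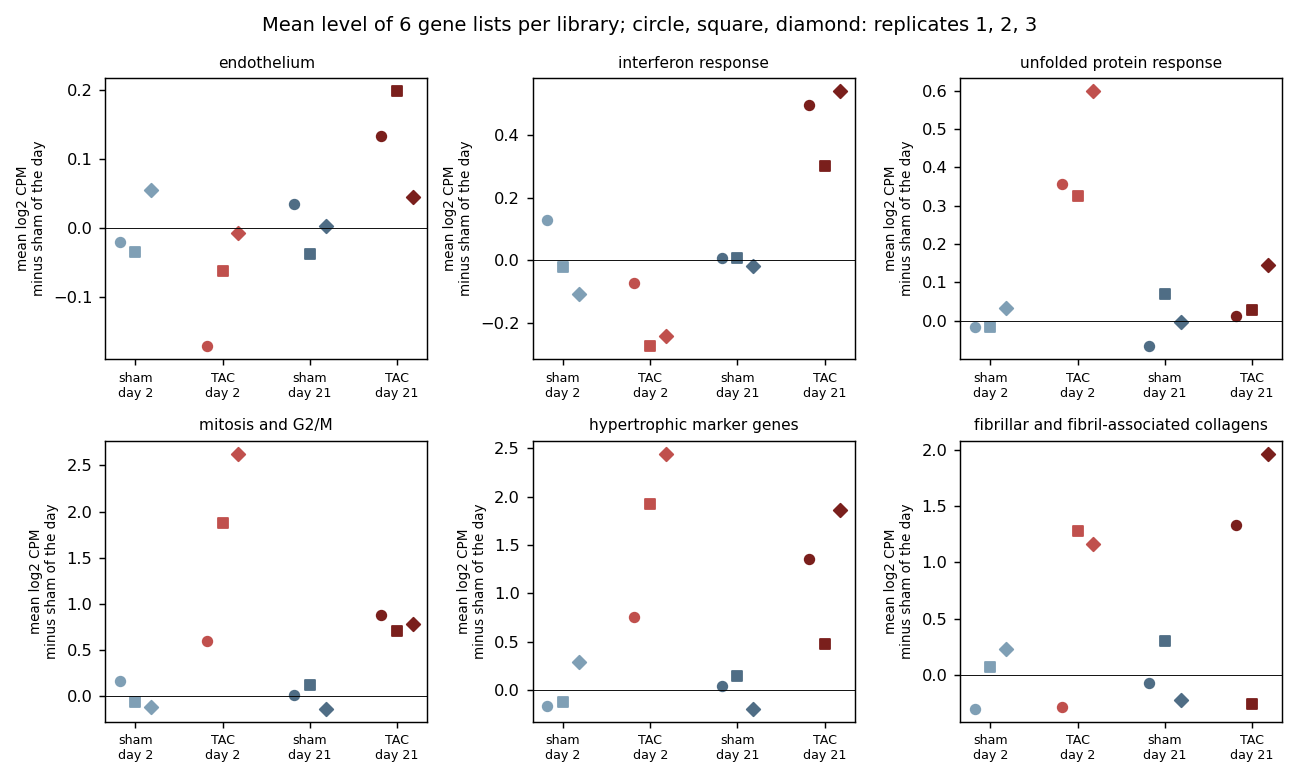
Mean log2 CPM of the members of 6 gene lists in each of the 12 libraries, minus the mean of the sham libraries of the same day (y axis), by group (x axis), with a marker for each replicate. All 3 TAC libraries of day 2 are raised for the unfolded protein response, whereas TAC day 2 replicate 1 and TAC day 21 replicate 2 are near or below the sham level for the fibrillar collagens.

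Markers of the stressed and hypertrophic muscle cell gave calls at both days. Of 17 genes measured, 13 rose at day 2 and 4 at day 21, beside 3.73% and 0.622% of all genes. DESeq2 called 14 and 6 at the 2 days, and voom 8 and 3. Without TAC day 2 replicate 1, 14 rose at day 2, and without TAC day 21 replicate 2, 8 rose at day 21. With all libraries the medians were 1.85 and 1.12. The median difference was -0.27, 1 member was more negative and 0 more positive at an unadjusted p under 0.05, and 0 passed the adjusted test by edgeR, DESeq2 or voom. The median difference was -0.22 without TAC day 21 replicate 2. It was -0.49 without TAC day 2 replicate 1, when 6 members were more negative at an unadjusted p under 0.05, beside 860 of all 13816 genes. In that fit 1 passed, Mybpc2, a myosin-binding protein of fast skeletal muscle (-2.11 ± 0.38, adjusted p = 0.0162, against -1.71 ± 0.52 and 0.292 with all libraries).

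Nppa, which encodes atrial natriuretic peptide, had 142, 169 and 258 CPM in sham day 2 and 755, 1069 and 1541 in TAC day 2. At day 21 it had 137, 269.8 and 113 in sham and 2111, 678 and 3409 in TAC. The TAC libraries were above the shams at both days without overlap, with effects of 2.57 ± 0.49 (adjusted p = 0.00892) and 3.58 ± 0.52 (adjusted p = 0.00403). The difference of 1.01 ± 0.66 had a 95% interval of -0.37 to 2.39 (adjusted p = 0.758), so that an effect somewhat smaller or several times larger at day 21 lies within it. Nppb, which encodes brain natriuretic peptide, also rose at both days (1.92 ± 0.36 and 1.65 ± 0.35, adjusted p = 0.00822 and 0.0316), with a difference of -0.27 ± 0.49 and an interval of -1.29 to 0.75. Acta1, the skeletal alpha-actin, rose by 2.24 ± 0.43 and 2.67 ± 0.43 (adjusted p = 0.00892 and 0.00898), with an interval of the difference of -0.77 to 1.64.

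Myh7, the slow myosin heavy chain, had 56.9, 137 and 388 CPM in sham day 2, 1626, 4088 and 2820 in TAC day 2, 545, 854 and 395 in sham day 21 and 1610, 719.7 and 5786 in TAC day 21. TAC day 21 replicate 2 lay within the range of the shams of its day, and every sham library of day 21 had more Myh7 than every sham library of day 2. Myh7 rose at day 2 (3.88 ± 0.73, adjusted p = 0.00822) and stood at 2.18 ± 0.67 at day 21 (adjusted p = 0.108), a difference of -1.70 ± 0.92 with an interval of -3.61 to 0.22. The level in TAC hearts was nearly the same at both days (-0.07 ± 0.64, adjusted p = 0.975). The sham change was 1.63 ± 0.66 (adjusted p = 0.438). Of 37 cytoskeleton genes, among them tubulins and actin regulators, 23 rose at day 2 and 1 at day 21, with medians of 0.64 and 0.40. At the 2 days DESeq2 called 26 and 3 of the 37, and voom 8 and 0. The difference was more negative for 4 and more positive for 0 at an unadjusted p under 0.05, and 0 passed the adjusted test by edgeR, DESeq2 or voom. With TAC day 2 replicate 1 left out, 17 were more negative at an unadjusted p under 0.05, beside 860 of all 13816 genes. In that fit 1, Pfn1, which encodes the actin-binding profilin, passed (-0.59 ± 0.13, adjusted p = 0.0461).

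Of the sarcomere genes, 0 of 25 had a difference with an unadjusted p under 0.05 or passed by edgeR, DESeq2 or voom, with a median of -0.05. Of the calcium handling genes, 1 of 22 was more positive and 1 more negative without adjustment, and 0 passed by any of the 3 tools. Scn4b, a beta subunit of cardiac sodium channels, stood out in the list of channels. It had 19.8, 41.9 and 31.4 CPM in sham day 2, 6.596, 4.74 and 3.65 in TAC day 2, 18.6, 11.9 and 9.79 in sham day 21 and 15.2, 16.1 and 3.904 in TAC day 21. Scn4b fell at day 2 (-2.66 ± 0.42, adjusted p = 0.00579) with no overlap, and the groups overlapped at day 21. The difference was 2.44 ± 0.59 (adjusted p = 0.138), and the sham change -1.21 ± 0.39 (adjusted p = 0.304).

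Genes of fatty acid uptake and oxidation had medians of -0.34 at day 2 and -0.40 at day 21, oxidative phosphorylation -0.21 and -0.17, and the TCA cycle -0.24 and -0.27. Their median differences were -0.07, 0.07 and -0.03. Of the 31, 51 and 22 members, 1, 0 and 0 had a difference with an unadjusted p under 0.05, and 0 passed by edgeR, DESeq2 or voom. These medians rest on the 2 libraries of low slope. Without TAC day 2 replicate 1 the median differences were 0.06, 0.24 and 0.15, and without TAC day 21 replicate 2 -0.25, -0.09 and -0.11. For oxidative phosphorylation, mean log2 CPM minus that of the shams was 0.0946, -0.372 and -0.442 in TAC day 2 and -0.192, 0.0952 and -0.461 in TAC day 21.

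The values of fibrosis genes moved with the 2 libraries of low slope. Of 16 fibrillar and fibril-associated collagens, 1 rose at day 21, with medians of 0.80 and 1.35 at the 2 days, and 0 differed between the days by edgeR, DESeq2, voom or at an unadjusted p under 0.05. The median difference was 0.40 with all libraries, 0.07 without TAC day 2 replicate 1 and 0.79 without TAC day 21 replicate 2. Without TAC day 2 replicate 1, 6 of the 16 rose at day 2, and without TAC day 21 replicate 2, 7 rose at day 21. Col1a1, the main chain of scar collagen, had 177, 179 and 221 CPM in sham day 2, 179.9, 524 and 575 in TAC day 2, 169, 229 and 156 in sham day 21 and 529, 194 and 831 in TAC day 21. The 2 libraries of low slope were at the sham level and the other 4 TAC libraries were above it. The difference was 0.34 ± 0.74 (adjusted p = 0.9504), with an interval of -1.20 to 1.87. Postn, periostin of activated fibroblasts, gave 0.56 ± 0.85 with an interval of -1.20 to 2.32 (adjusted p = 0.924).

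Among 21 genes of activated fibroblasts the median difference was 0.56, with 1 more positive and 2 more negative at an unadjusted p under 0.05 (0 past the adjusted test by edgeR, DESeq2 and voom). It was 0.22 without TAC day 2 replicate 1 and 0.995 without TAC day 21 replicate 2. At day 2, 2 of the 21 rose with all libraries and 7 without TAC day 2 replicate 1. At day 21, 0 rose with all libraries and 10 without TAC day 21 replicate 2. Of 20 genes of resident fibroblasts, 3 were more positive and 0 more negative at an unadjusted p under 0.05. The shares of all genes were 4.21% and 4.05%. Past the adjusted test were 0 of the 20 by edgeR and voom and 1 by DESeq2. Pi16, a marker of adventitial fibroblasts, rose at day 21 (1.03 ± 0.25, adjusted p = 0.0487), with 87.4, 40.4 and 116 CPM in TAC against 33.9, 45.4 and 41 in sham, replicate 2 lying among the shams. Its difference was 1.28 ± 0.35 (adjusted p = 0.227), and without TAC day 21 replicate 2 1.60 ± 0.25 (adjusted p = 0.0178). Tnc, which encodes the matrix protein tenascin-C of injured tissue, had 12.7, 134 and 316 CPM in TAC day 2 and 21.9, 2.704 and 28.6 in TAC day 21, with a difference of -2.59 ± 1.28 (adjusted p = 0.619). In the list of matricellular and elastic matrix genes, 4 of 31 rose at day 2 and 1 at day 21 with all libraries. Without TAC day 2 replicate 1, 12 rose at day 2, beside 1237 of all 13816 genes. Without TAC day 21 replicate 2, 12 rose at day 21, beside 324 of all 13816. With all libraries 2 were more positive and 1 more negative at an unadjusted p under 0.05 (0 past the adjusted test by edgeR, DESeq2 and voom).

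Of 22 pericyte and smooth muscle genes, 3 were more positive and 2 more negative at an unadjusted p under 0.05. The shares of all genes were 4.21% and 4.05%. The list median was -0.09 (0 past the adjusted test by edgeR, DESeq2 and voom). In the other 23 lists with at least 6 members measured, the median differences lay between -0.19 and 0.62. Of their members 0 passed by edgeR with all libraries and 4 without TAC day 2 replicate 1. With all libraries no list had more than 3 more positive or 5 more negative members at an unadjusted p under 0.05. The upper end of that range was the lymphocyte list.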

How the data were processed

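Per the labels, left ventricles were frozen in liquid nitrogen and total RNA went through a NuGEN Ovation kit to an Illumina NextSeq500. The submitters' processing notes name TopHat, DESeq and hg19, without versions. The sources used here do not give the mouse build or the counting tool. Per the labels, the authors deposited raw read counts per gene symbol (24015 genes) and RPKM, reads per kilobase and 1000000 reads (23951 genes). The counts were tested and the RPKM served as an alternative, as log2(RPKM + 1).

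In R 4.3.3 with edgeR 4.0.16, filterByExpr on the 8 groups left 13816 genes, which held 99.9% or more of each library's counts. After TMM scaling, a quasi-likelihood model with 8 group means on all 24 libraries had 16 residual degrees of freedom (biological coefficient of variation 0.146). The contrast was (TAC day 21 - sham day 21) - (TAC day 2 - sham day 2). The 2 effects within a day, the sham change and the TAC change over time were tested beside it. Tests were two-sided, adjusted by Benjamini-Hochberg over all genes, with a threshold of 0.05. The spread between libraries, not depth, set the precision. Replicates differed by a chi-square per degree of freedom of 3.56 to 7.32 within the sham groups and 14.7 to 53.5 within the TAC groups. All are more than counting noise gives for 1 library sequenced again. The model gave each gene the same spread in all groups, so numbers of calls between sham groups and between TAC groups are not directly comparable. The test was also tried on simulated counts with known changes, in which sham and TAC libraries shared the same spread. The simulation held no library of weak response, so it does not show how the test does on these data.

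The comparison, the gene lists and the naming rule were chosen with earlier results of these data known. The rule named up to 12 genes per direction past the test, 19 fixed genes and up to 4 members of each list with the smallest p. Other genes, among them those called without TAC day 2 replicate 1 or close to the threshold, were named after their values were seen, and 1 gene is not reported here.

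Alternatives were RLE scaling, no filter on low counts, at least 1 CPM in at least 6 libraries, DESeq2 1.42.0, limma 3.58.1 (voom, and on RPKM), only the 12 libraries, a replicate block, Myl7 as a covariate, no libraries over 30 CPM of Myl7, and each library left out in turn. Promoter stretches came from RefSeq tables (GRCm38.p6).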

Additional observations from a re-analysis of the deposited data

Results flagged for a closer look

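Trp53i11 and Rsad2 stood out because their response to TAC differed between the 2 days by a test of the difference itself. For Trp53i11 the log2 difference, day 21 minus day 2, was 1.20 (adjusted p = 0.00304), and for Rsad2 1.47 (adjusted p = 0.0495), by the quasi-likelihood test of edgeR, adjusted by Benjamini-Hochberg. In both genes the 3 TAC libraries were below the 3 shams at day 2 and above them at day 21. Both were chosen by that same difference, so this order is a description only, and the share of all genes with it was not counted. No outlying sample was removed for these values, and the libraries of low slope described above are included.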

How the results depend on the processing

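The 2 genes whose TAC effect differed between the days became 1 with RLE scaling, 6 without a filter, 59 with DESeq2, 6 with limma on RPKM, 25 with Myl7 as a covariate and 0 without the 3 libraries over 30 CPM of Myl7 (698 at an unadjusted p under 0.05). That last fit kept 1 sham library of day 2, assumed to vary like the other groups. The stricter filter, voom and the fit of the 12 libraries gave 2 each, but Rsad2 was not among those of voom (adjusted p = 0.0625 by voom). Calls at day 2, 633, became 292 with voom, 207 on RPKM, 238 in the 12 libraries, 1552 with the Myl7 covariate and 0 without the libraries rich in Myl7 (1302 unadjusted). Calls at day 21, 151, became 461 with DESeq2, 87 with voom, 48 in the 12 libraries, 1153 with the covariate and 4 without those libraries. The 18 sham calls became 47 with DESeq2, 10 on RPKM, 4 in the 12 libraries, 28 with the covariate and 0 without those libraries (544 unadjusted). The 389 calls over time in TAC hearts became 671 with DESeq2, 242 on RPKM, 243 in the 12 libraries and 251 without those libraries. With each library left out in turn the 5 counts ran from 1 to 69, 12 to 1831, 7 to 573, 4 to 24 and 134 to 758. An alternative chosen after seeing the data, TAC day 2 replicate 1 left out with Myl7 as a covariate, gave 113, 2747, 1364, 32 and 835. No called value changed sign under these settings, and beyond the samples each leaves out the cause was not tested.

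With a replicate block, 1 gene differed between the days. The numbers did not pair the samples: 5 of 18 same-numbered pairs correlated above 0.1 (-0.298 to 0.262), and in 14 of 36 comparisons a sample correlated best with its own number.

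Over 23 settings the difference of Trp53i11 ran from 1.09 to 1.27 (adjusted p 1.93e-08 to 0.303) and that of Rsad2 from 1.19 to 1.77 (0.000115 to 0.196).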
